A study of Mus musculus with 6 samples.

Results

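The retinitis pigmentosa genes described here encode proteins of splicing and basic metabolism rather than of the photoreceptor itself. They are *Prpf8*, *Snrnp200*, *Prpf6*, *Prpf31*, *Prpf3*, *Prpf4*, *Rp9*, *Topors*, *Impdh1* and *Idh3b*. The 10 genes were chosen by name, as known disease genes, with earlier results of these data known. They were looked up by gene symbol among the mRNA transcripts of the study. All 10 were listed, with 11 transcripts of the 15142 mRNA transcripts in the table, or 10 of its 12145 gene symbols, and 0 were absent. *Rp9* is spelled *rp9* in the table and *Prpf31* is listed with 2 transcripts.

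The study sequenced mRNA of whole retinas from 3 *Nrl-/-* mice, which lack both copies of the gene of the leucine zipper factor NRL, and 3 wild type (WT) mice. Both genotypes were of strain C57BL/6 and post natal day 21, and each library came from the retina of a different mouse. NRL makes young photoreceptors become rods, and those of *Nrl-/-* retina resemble cones. The values are FPKM, read fragments of a transcript scaled for its exon length and the size of the library. Since the retina was sequenced whole, fewer cells of a type and less RNA per cell cannot be told apart.

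Retinitis pigmentosa is an inherited loss of photoreceptors that usually begins in the rods. Dominant forms can arise from mutations in proteins of the U4/U6.U5 tri-snRNP, the large particle that joins the pre-mRNA and becomes the core of the active spliceosome. Every cell needs these proteins, and the disease is nonetheless limited to the retina. PRPF8, SNRNP200 and PRPF6 belong to the U5 side of the particle, and PRPF31, PRPF3 and PRPF4 to the U4/U6 side. RP9 binds the kinase PIM1 and has been tied to splicing, TOPORS is a ligase for ubiquitin and SUMO, IMPDH1 makes guanine nucleotides, and IDH3B is a subunit of an enzyme of the tricarboxylic acid (TCA) cycle. The table holds retina alone, so whether the genes are expressed in other tissues was not examined.

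*Idh3b* was higher in *Nrl-/-* retina and none of the other 9 genes passed the test. The fold changes of the 11 transcripts ran from 0.895 for *Prpf8* to 1.21 for *Idh3b*. A transcript was called at an adjusted p under 0.05 in limma, with adjustment over the 15142 mRNA transcripts. Of the 11 transcripts 1 was called higher and 0 were called lower in *Nrl-/-* retina, while over all mRNA transcripts 26.7% were called higher and 10.1% lower. Without adjustment 2 of the 11 had a p under 0.05, those of *Idh3b* and *Prpf6*. Scaling the libraries in 4 other ways (median-of-ratios, upper-quartile, quantile, and a scaling without the 25 highest transcripts) gave 1, 1, 0 and 1 higher and 2 lower each time. The shares of all mRNA transcripts were then 16.3%, 16.3%, 16.2% and 16.9% higher and 15%, 15%, 14.8% and 14.6% lower. Without WT replicate 3 the counts among the 11 were 2 higher and 1 lower, against 27.6% and 10.4% of all, and without WT replicate 2 they were 1 and 0, against 23.3% and 9.61%. The 3 *Nrl-/-* libraries all lay above the 3 WT libraries for 3 transcripts, those of *Idh3b*, *Prpf6* and *Prpf3*, against 34.9% of all mRNA transcripts. They all lay below for 1, that of *Prpf8*, against 14.2% of all. The median absolute log2 fold change was 0.09 over the 11 transcripts and 0.17 over all mRNA transcripts. For the 10 transcripts that were not called, the 95% intervals of the fold change ran from 0.800 to 1.28 at the widest.

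**Figure D1:**
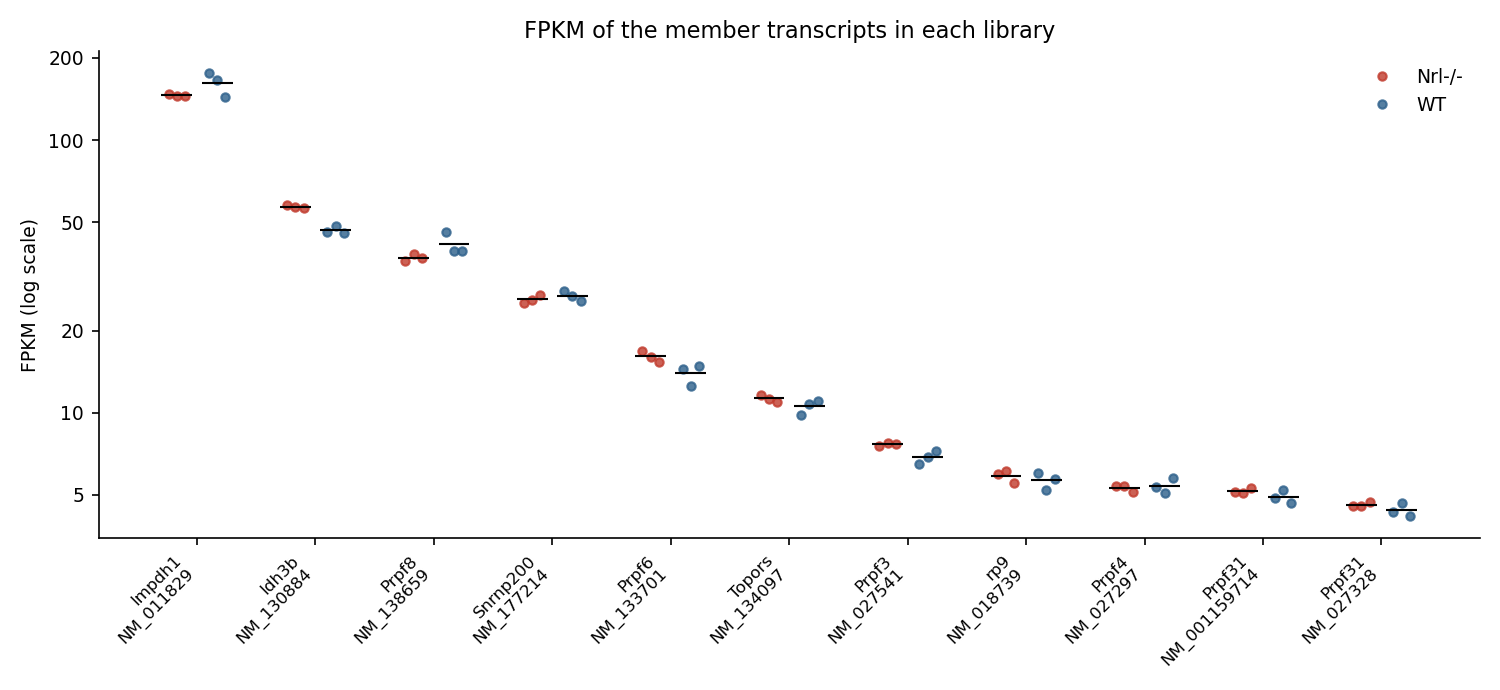
FPKM of each of the 11 transcripts on a log axis, in the 3 *Nrl-/-* libraries (red, left) and the 3 WT libraries (blue, right), with the mean of each genotype as a bar. Levels run from *Impdh1*, at means of 146 in *Nrl-/-* and 162 in WT retina, to the *Prpf31* transcript NM_027328, at 4.59 in *Nrl-/-* and 4.38 in WT retina.

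The level of *Nrl* fitted the genotype label of each library, and 1 WT library stood apart in sex-linked RNA. *Nrl* (NM_001136074) lay between 0.879 and 0.959 FPKM in *Nrl-/-* libraries and between 500.5 and 583 FPKM in WT libraries. *Xist* was at 186 FPKM and the Y-linked *Ddx3y* at 0.0644 FPKM in WT replicate 2 alone, while the labels give no sex. The summed FPKM of 5 rod markers was 18.4 to 18.7 in *Nrl-/-* and 4769 to 5328 in WT libraries, and that of 5 cone markers 5032 to 5186 in *Nrl-/-* and 346.0 to 417 in WT libraries. Markers of pigment epithelium, a neighbouring tissue, summed to 24.2 to 40.4 FPKM in *Nrl-/-* and 9.30 to 72.2 FPKM in WT libraries. Of 4 lens markers only *Cryaa* was listed, at 0.0281 to 0.149 FPKM in *Nrl-/-* and 0.659 to 3 FPKM in WT libraries. The part of these cell types in the results was not tested.

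The 11 transcripts spanned a 34.3-fold range of mean FPKM over the 6 libraries, and their order was the same in both genotypes. From high to low it ran *Impdh1*, *Idh3b*, *Prpf8*, *Snrnp200*, *Prpf6*, *Topors*, *Prpf3*, *rp9*, *Prpf4* and the 2 *Prpf31* transcripts. It is an order of transcripts, and the level of *Prpf31* is divided between 2. In *Nrl-/-* retina every neighbour in this order was separate in all libraries except *Prpf4* and the *Prpf31* transcript NM_001159714. In WT retina 4 neighbouring pairs overlapped, which were *Idh3b* with *Prpf8*, *rp9* with *Prpf4*, *Prpf4* with NM_001159714, and the 2 *Prpf31* transcripts. *Impdh1* had the rank 119 of 15142 by mean FPKM in *Nrl-/-* and 78 in WT retina. The SD of log2(FPKM + 1) was smaller among *Nrl-/-* than among WT libraries for 11 of the 11 transcripts, and this held for 72.4% of all mRNA transcripts. The 2 transcripts of *Prpf31* share exons and are not independent in these counts.

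PRPF8 is the largest protein of the spliceosome and lies at its catalytic center. *Prpf8* (NM_138659, plus strand, chr11:75300279-75322951) had 36.0, 38.1 and 36.8 FPKM in the *Nrl-/-* libraries, against 46.2, 39.2 and 39.2 FPKM in the WT libraries. All *Nrl-/-* libraries lay below all WT libraries, and WT replicate 1 stood above the other WT libraries. The log2 fold change was -0.16 (95% interval -0.32 to 0.0010), which did not pass in limma (adjusted p = 0.11). With each of 4 other scalings of the libraries *Prpf8* was called lower in *Nrl-/-* retina, at log2 fold changes of -0.26 to -0.30 and limma adjusted p from 0.010 to 0.019. Without WT replicate 1 it was -0.08 and did not pass (limma adjusted p = 0.22).

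SNRNP200 is the helicase that unwinds the U4 and U6 RNAs. *Snrnp200* (NM_177214, plus strand, chr2:127034122-127066187) had 25.2, 25.9 and 27.1 FPKM in *Nrl-/-* and 28.0, 26.9 and 25.7 FPKM in WT libraries. The genotypes overlapped, and the log2 fold change of -0.04 (95% interval -0.17 to 0.08) did not pass in limma (adjusted p = 0.59). With the 4 scalings it was -0.14 to -0.17 and did not pass either (limma adjusted p from 0.0501 to 0.090).

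PRPF6 bridges the U5 and U4/U6 parts of the particle. *Prpf6* (NM_133701, plus strand, chr2:181326573-181390365) had 16.9, 16.03 and 15.3 FPKM in *Nrl-/-* libraries, against 14.5, 12.5 and 14.9 FPKM in WT libraries. Every *Nrl-/-* library was above every WT library, by the narrow gap from 15.3 to 14.9 FPKM, and WT replicate 2 was the lowest. The log2 fold change of 0.19 (95% interval 0.03 to 0.36) missed the threshold in limma (adjusted p = 0.068). Without WT replicate 3 it was 0.24 and passed (limma adjusted p = 0.036), while without WT replicate 2 it was 0.12 and did not (limma adjusted p = 0.19). Under the 4 scalings it was 0.08 to 0.10 and did not pass (limma adjusted p from 0.34 to 0.47). On the opposite strand, *Samd10* and *Znf512b* overlap the annotated locus of *Prpf6*. These overlaps end at 181333917 and 181327508, upstream of the RefSeq promoter window of *Prpf6*, which begins at 181335774.

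PRPF3 and PRPF4 form a complex on the U4/U6 RNAs, and PRPF31 holds the U4 RNA. *Prpf3* (NM_027541, minus strand, chr3:95634047-95659808) had 7.51, 7.75 and 7.69 FPKM in *Nrl-/-* and 6.46, 6.89 and 7.22 FPKM in WT libraries. Here too all *Nrl-/-* libraries lay above all WT libraries, but the log2 fold change of 0.14 (95% interval -0.00069 to 0.28) did not pass in limma (adjusted p = 0.11), and with the 4 scalings it was 0.05 to 0.07. *Prpf4* (NM_027297, plus strand, chr4:62069831-62088024) had 5.36, 5.36 and 5.11 FPKM in *Nrl-/-* and 5.32, 5.06 and 5.77 FPKM in WT libraries. These overlapped, and its log2 fold change was -0.02 (95% interval -0.18 to 0.13, limma adjusted p = 0.82), and 0.02 without WT replicate 3.

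*Prpf31* (plus strand, chr7:3581587-3594088) was measured as NM_001159714, at 5.11, 5.06 and 5.28 FPKM in *Nrl-/-* and 4.86, 5.19 and 4.66 FPKM in WT libraries. Its second transcript, NM_027328, had 4.54, 4.54 and 4.70 FPKM in *Nrl-/-* and 4.31, 4.66 and 4.17 FPKM in WT libraries. For both transcripts WT replicate 2 reached into the *Nrl-/-* range. The log2 fold changes were 0.06 and 0.06 (limma adjusted p = 0.51 and 0.54), and both were below 0 with each of the 4 other scalings. A long noncoding gene, *Gm15927*, overlaps *Prpf31* on the opposite strand.

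The table's *rp9* (NM_018739, minus strand, chr9:22215491-22272802) had 5.96, 6.11 and 5.50 FPKM in *Nrl-/-* and 6.01, 5.19 and 5.73 FPKM in WT libraries. The genotypes overlapped, and the log2 fold change of 0.05 (95% interval -0.12 to 0.21, limma adjusted p = 0.65) was below 0 with each of the 4 scalings and without WT replicate 2. The annotated locus of *Rp9* overlaps *9530077C05Rik* and *Gm17545* on the opposite strand. These are overlaps of whole gene spans, and whether exons overlap is not given here. Where exons do overlap, reads cannot be told apart if the counting ignores strand, which the sources used here do not state. *Topors* (NM_134097, minus strand, chr4:40206634-40216883) had 11.6, 11.2 and 10.96 FPKM in *Nrl-/-* and 9.78, 10.8 and 11.04 FPKM in WT libraries. WT replicate 3 lay within the *Nrl-/-* range, and the log2 fold change of 0.09 (95% interval -0.05 to 0.23, limma adjusted p = 0.30) was below 0 with each of the 4 scalings.

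IMPDH1 catalyses the rate-limiting step of guanine nucleotide synthesis, and photoreceptors need guanine nucleotides for the cGMP that keeps their channels open. *Impdh1* (NM_011829, minus strand, chr6:29150434-29166364) was the most abundant of the 10 genes, with 147, 145 and 145 FPKM in *Nrl-/-* and 176, 166 and 144 FPKM in WT libraries. The 3 *Nrl-/-* libraries differed little, and WT replicate 3 lay just below them while the other WT libraries lay above. The log2 fold change of -0.15 (95% interval -0.32 to 0.02) did not pass in limma (adjusted p = 0.16). It was called lower with each of the 4 scalings, at -0.25 to -0.30 (limma adjusted p from 0.0053 to 0.029), and without WT replicate 3, at -0.23 (limma adjusted p = 0.011). Without WT replicate 1 it was -0.08 and did not pass (limma adjusted p = 0.37).

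*Impdh2*, which encodes the other IMP dehydrogenase, was at 1.99 ± 0.0207 FPKM in *Nrl-/-* and 2.06 ± 0.208 FPKM in WT retina (SD, n = 3 each). The FPKM of *Impdh1* was 73.2 ± 0.960 times that of *Impdh2* in *Nrl-/-* and 79.8 ± 15.3 times in WT retina (SD, n = 3 each). No difference of the ratio beyond the spread of the libraries was detectable (p = 0.7, two-sided exact permutation test, 3 against 3). Per the paper, reads that map to several places led its BWA workflow to underestimate some housekeeping genes. Whether this bears on the levels of *Impdh1* and *Impdh2* was not tested.

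IDH3B is the beta subunit of NAD-dependent isocitrate dehydrogenase, which joins alpha, beta and gamma subunits and turns isocitrate into alpha-ketoglutarate in the mitochondrion. *Idh3b* (NM_130884, minus strand, chr2:130105045-130110283) had 57.9, 56.7 and 56.3 FPKM in *Nrl-/-* libraries, against 46.2, 48.5 and 45.5 FPKM in WT libraries. All *Nrl-/-* libraries were above all WT libraries, with means of 57.0 ± 0.839 FPKM in *Nrl-/-* and 46.7 ± 1.58 FPKM in WT retina (SD, n = 3 each). The log2 fold change was 0.28 (standard error 0.05, 95% interval 0.17 to 0.39), which passed in limma (adjusted p = 0.0025). Without WT replicate 2, the library with *Xist*, it was 0.31 (limma adjusted p = 0.0048). With quantile normalization it was 0.13 and no longer passed (limma adjusted p = 0.082), and with the other 3 scalings it was 0.17 to 0.18 and passed (limma adjusted p from 0.022 to 0.031).

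The genes of the other subunits rose in *Nrl-/-* retina as well. *Idh3a*, the gene of the catalytic alpha subunit, had 57.1, 57.1 and 54.7 FPKM in *Nrl-/-* libraries, against 31.0, 31.9 and 30.3 FPKM in WT libraries. *Idh3g*, the gene of the gamma subunit, had 40.9, 41.8 and 43.3 FPKM in *Nrl-/-* libraries, against 26.3, 29.1 and 27.4 FPKM in WT libraries. Neither gene overlapped between genotypes, and their log2 fold changes were 0.84 for *Idh3a* and 0.59 for *Idh3g* (limma adjusted p = 2.3e-06 and 5.1e-05).

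Set against the other subunits, *Idh3b* stood lower in every *Nrl-/-* library than in any WT library. *Idh3b* over *Idh3a* was 1.01 ± 0.0179 in *Nrl-/-* and 1.504 ± 0.0160 in WT retina (SD, n = 3 each). *Idh3b* over *Idh3g* was 1.36 ± 0.0576 in *Nrl-/-* and 1.70 ± 0.0537 in WT retina (SD, n = 3 each). Neither ratio overlapped between genotypes (p = 0.1 for each, two-sided exact permutation test, the smallest that 3 against 3 libraries allow), and over the 3 ratios tested the adjusted p was 0.15. A ratio within a library does not change with scaling by a constant.

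**Figure D2:**
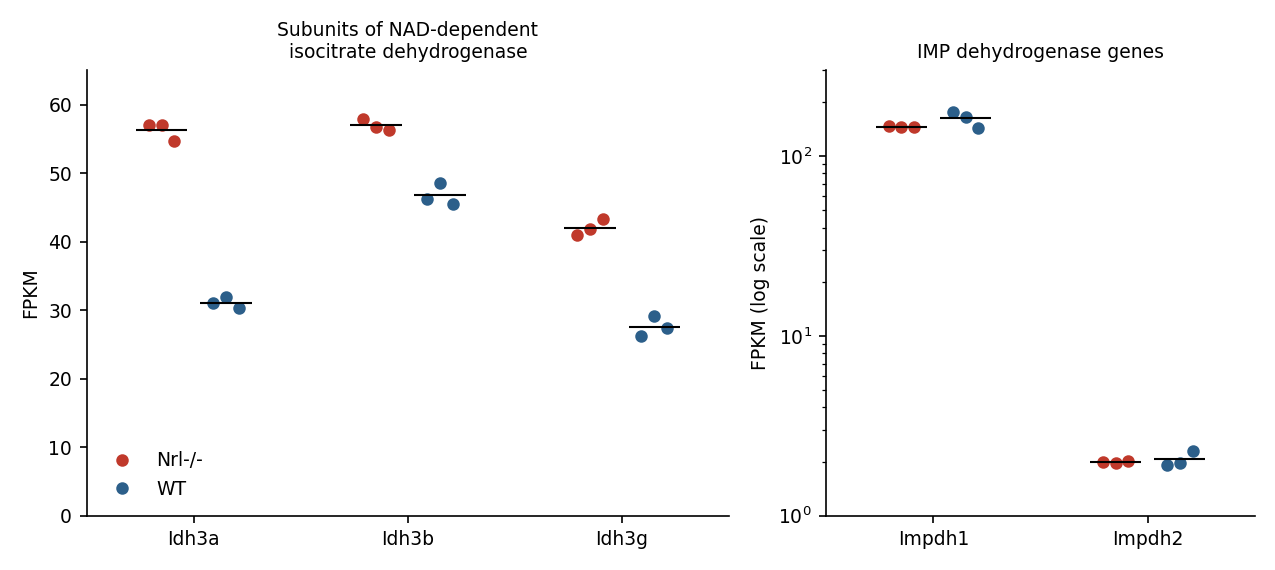
FPKM per library of the 3 subunit genes of NAD-dependent isocitrate dehydrogenase (linear axis) and of the 2 IMP dehydrogenase genes (log axis), *Nrl-/-* in red and left, WT in blue and right, with means as bars. *Idh3a* and *Idh3b* stand at 56.3 and 57.0 FPKM in *Nrl-/-* retina, while in WT retina *Idh3a* is at 31.1 and *Idh3b* at 46.7 FPKM.

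**Figure D3:**
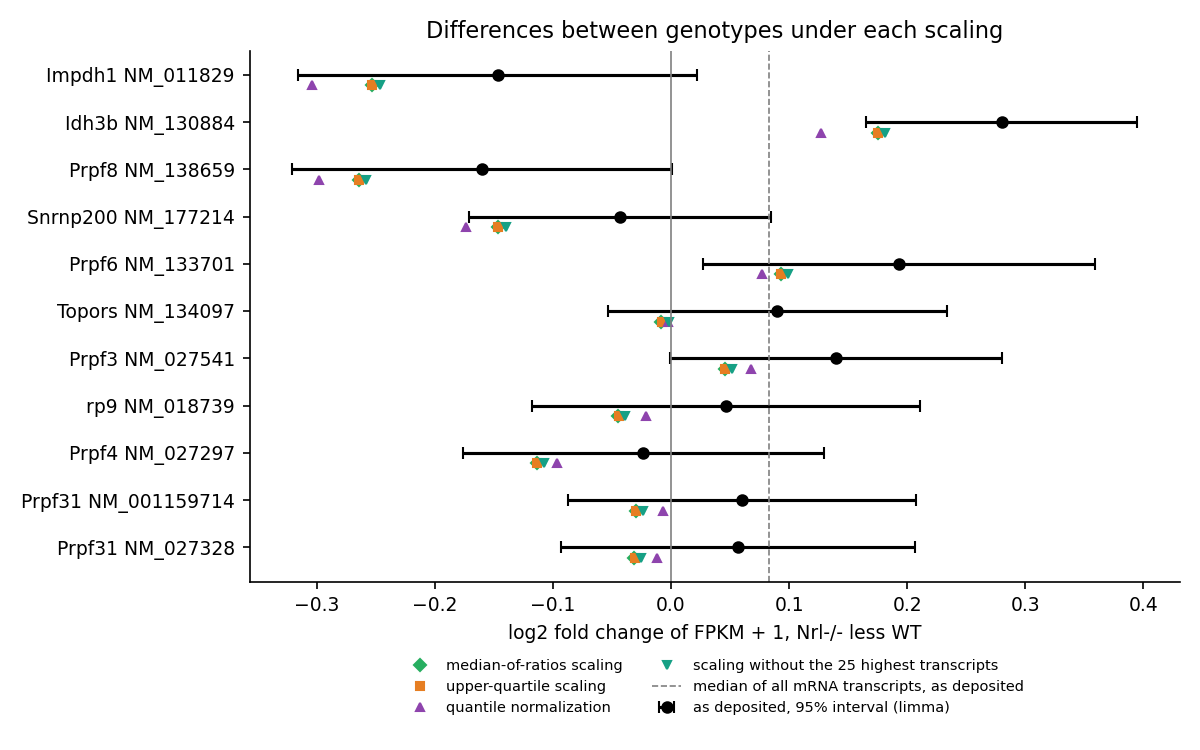
Log2 fold change of FPKM + 1, *Nrl-/-* less WT, of the 11 transcripts as deposited (black, with the 95% interval from limma) and under 4 other scalings (colored marks), with the median of all mRNA transcripts, 0.08, as a dashed line. The interval of *Idh3b*, 0.17 to 0.39, and that of *Prpf6*, 0.03 to 0.36, lie above 0, and the other scalings place every transcript lower than the deposited values do.

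The deposited TopHat workflow gave 1 pooled FPKM per genotype for each Ensembl transcript, so there are no replicates and no test, and it used the same 6 libraries. It listed all 10 genes with 38 transcripts. Summed over its transcripts, *Idh3b* was at 98.5 FPKM in *Nrl-/-* and 79.7 FPKM in WT retina, where the BWA transcript averaged 57.0 FPKM in *Nrl-/-* and 46.7 FPKM in WT retina. *Impdh1*, with 8 transcripts, was at 413 FPKM in *Nrl-/-* and 466 FPKM in WT retina, and *Prpf8* at 51.7 FPKM in *Nrl-/-* and 61.6 FPKM in WT retina. *Prpf6* was at 28.0 FPKM in *Nrl-/-* and 22.8 FPKM in WT retina. The summed levels did not keep the order of the BWA transcripts. *Prpf31* was at 24.9 FPKM in *Nrl-/-* and 22.7 FPKM in WT retina, and *Prpf3* at 23.2 FPKM and 21.5 FPKM. Both stood above *Topors*, at 10.5 FPKM in *Nrl-/-* and 9.96 FPKM in WT retina. The summed log2 ratios of the 10 genes ran from -0.25 for *Prpf8* to 0.30 for *Idh3b*, and the median over all genes was 0.08.

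Of the 38 transcripts 3 differed by more than 2-fold upward and 2 by more than 2-fold downward in *Nrl-/-* retina, against 7.09% and 6.49% of the 31115 transcripts of that table. The upward ones were 2 minor transcripts of *Prpf6*, at 5.05 and 1.88 FPKM in *Nrl-/-*, against 2.40 and 0.918 FPKM in WT retina, and 1 of *Snrnp200*, at 3.08 FPKM in *Nrl-/-* and 1.51 FPKM in WT retina. The downward ones were a minor transcript of *Impdh1*, at 0.553 FPKM in *Nrl-/-* and 3.16 FPKM in WT retina, and one of *Prpf8*, at 1.08 FPKM in *Nrl-/-* and 3.66 FPKM in WT retina. Of their genes' summed FPKM, the 5 made up 0.134% to 18.0% in *Nrl-/-* and 0.679% to 10.5% in WT retina. The 4 leading *Impdh1* transcripts were at 134.7, 119.7, 66.8 and 66.7 FPKM in *Nrl-/-* retina and at 140.9, 134.4, 80.7 and 71.0 FPKM in WT retina. With 1 pooled value a genotype, none of these isoform differences can be set against replicate error.

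**Figure D4:**
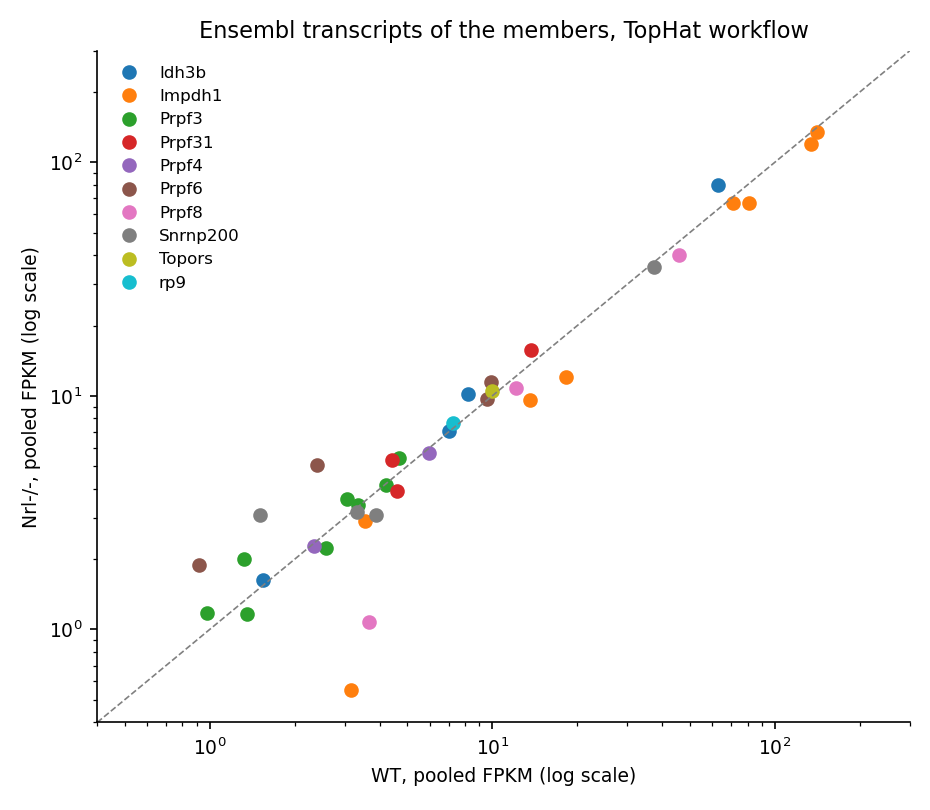
Pooled FPKM of the 38 Ensembl transcripts of the 10 genes in the TopHat workflow, *Nrl-/-* on the vertical and WT on the horizontal axis, both logarithmic, with the line of equal values dashed. Most points lie near the line, and the point farthest below it is the *Impdh1* transcript at 0.553 FPKM in *Nrl-/-* and 3.16 FPKM in WT retina.

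RefSeq promoter windows, from 250 bases before to 50 bases after a start, were found for 9 of the 10 genes in 11 windows (build GRCm38.p6), and none for *Rp9*. Each window matched NCBIM37, which is mm9, at 1 place, and coordinates are given there. The 11 windows held a median of 23 CpG dinucleotides, against 7 over all 32851 windows of mouse genes, and 0 held TATAAA, against 13.6% of all. Searched on both strands, CCGGAAG, a core of the sites of ETS factors, was in 4 of the 11 windows, against 8.86% of all windows. These were the windows of *Idh3b*, *Snrnp200* and *Prpf6* and 1 of the 2 windows of *Prpf3*. GGATTA, a core of CRX sites, was in that of *Prpf8*, against 7.06%, and TGCTGAC, part of the site that NRL binds, in 1 of the 2 windows of *Impdh1*, against 4.67%. No 2 of these matches overlap, and a match is a description of the letters and not a site in use. The 2 windows of *Prpf3* share bases, so the 11 windows are not independent. CCGGAAG itself holds a CpG, and its share was not compared with that of windows of like CpG content.

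Of these windows 4 are printed from 250 bases before to 10 bases after the start, on the gene's strand. They are that of *Idh3b*, the 1 gene called, those of *Prpf3* and *Snrnp200* that also hold CCGGAAG upstream, and that of *Prpf8*, with its GGATTA. The other *Prpf3* window, at chr3:95659759-95660058, does not hold CCGGAAG. *Idh3b* is minus strand at chr2:130110178-130110437, *Prpf3* minus strand at chr3:95659667-95659926, *Snrnp200* plus strand at chr2:127033872-127034131 and *Prpf8* plus strand at chr11:75300029-75300288. Capitals mark the match, which in *Idh3b* and *Prpf8* reads as the reverse complement.
Idh3b: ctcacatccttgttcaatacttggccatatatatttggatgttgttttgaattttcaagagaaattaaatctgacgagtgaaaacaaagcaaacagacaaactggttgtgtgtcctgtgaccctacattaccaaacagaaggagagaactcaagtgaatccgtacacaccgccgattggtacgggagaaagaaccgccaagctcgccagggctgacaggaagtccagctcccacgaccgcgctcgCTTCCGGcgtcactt
Prpf3: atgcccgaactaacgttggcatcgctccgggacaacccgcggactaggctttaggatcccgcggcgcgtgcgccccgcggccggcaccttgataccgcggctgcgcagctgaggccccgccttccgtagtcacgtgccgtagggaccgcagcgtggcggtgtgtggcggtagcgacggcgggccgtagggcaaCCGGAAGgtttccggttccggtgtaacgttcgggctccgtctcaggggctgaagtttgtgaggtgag
Snrnp200: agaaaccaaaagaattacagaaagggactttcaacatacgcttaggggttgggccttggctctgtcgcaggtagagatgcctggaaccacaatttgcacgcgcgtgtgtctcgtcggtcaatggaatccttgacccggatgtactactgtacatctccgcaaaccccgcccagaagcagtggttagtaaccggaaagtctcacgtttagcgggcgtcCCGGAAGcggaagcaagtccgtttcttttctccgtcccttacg
Prpf8: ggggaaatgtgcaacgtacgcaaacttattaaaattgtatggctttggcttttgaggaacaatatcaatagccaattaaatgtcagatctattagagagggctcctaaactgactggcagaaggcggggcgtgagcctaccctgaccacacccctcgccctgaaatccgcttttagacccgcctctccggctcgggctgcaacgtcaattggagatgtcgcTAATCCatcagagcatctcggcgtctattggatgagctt
The match begins 5 bases before the start in *Idh3b* and runs across it, and begins 57 bases before the start in *Prpf3*, 33 in *Snrnp200* and 29 in *Prpf8*. Of these 4 genes *Idh3b* was called and *Prpf3*, *Snrnp200* and *Prpf8* were not.

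For each role, the other genes of the pathway were counted by the transcript with the highest mean FPKM. Over all 12145 symbols 28.3% were called higher and 10.2% lower in *Nrl-/-* retina by limma at an adjusted p under 0.05, with a median log2 fold change of 0.09. As deposited these were 3440 higher and 1243 lower. Under the other scalings 2060 to 2173 symbols were called higher and 1831 to 1888 lower. Without *Nrl-/-* replicates 1, 2 and 3 in turn, 2372, 2484 and 2767 were called higher and 931, 952 and 1014 lower. Without WT replicates 1, 2 and 3 in turn, the counts were 3363, 2996 and 3575 higher and 1201, 1209 and 1288 lower. The list counts below are descriptions beside the shares and counts of the same setting, with no test of a list.

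Of 18 other proteins of the U4/U6.U5 tri-snRNP 2 were called higher and 0 lower in *Nrl-/-* retina, with a median log2 fold change of 0.08. They were *Nhp2l1*, whose protein binds the U4 RNA, at 5.27 FPKM in *Nrl-/-* and 4.20 FPKM in WT retina (log2 fold change 0.27), and *Lsm6*, of the ring that binds the U6 RNA, at 3.64 FPKM in *Nrl-/-* and 2.88 FPKM in WT retina (0.26). Neither passed under any of the 4 other scalings, where 0 of the 18 were called higher and 2 lower, and without *Nrl-/-* replicate 1 or 2 the counts were 0 and 0. Of 18 other processing factors and helicases 3 were called higher and 0 lower, with a median of 0.07. *Prpf4b*, a kinase of the spliceosome, was at 40.7 FPKM in *Nrl-/-* and 29.9 FPKM in WT retina (0.43). *Prpf38b* rose by 0.34 and *Prpf19*, a ubiquitin ligase of the spliceosome, by 0.34 on the log2 scale. The median of both groups was below 0 with each of the 4 scalings, and without WT replicate 3 the count of processing factors called higher was 8.

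Around IMPDH, 10 of 19 genes of purine nucleotide synthesis and salvage were called higher and 1 lower, with a median log2 fold change of 0.25. *Guk1*, whose kinase acts on GMP, was at 130 FPKM in *Nrl-/-* and 73.8 FPKM in WT retina (0.81), and *Nme1*, a nucleoside diphosphate kinase, at 73.2 FPKM in *Nrl-/-* and 42.4 FPKM in WT retina (0.77). *Hprt*, which salvages guanine and hypoxanthine, rose by 0.45 on the log2 scale, and by 0.30 to 0.35 with the 4 scalings. Per the paper, *Hprt* varied less between genotypes by qRT-PCR than in its RNA-seq values, and it served there as a control for normalization. *Adssl1*, an adenylosuccinate synthase, was lower, at 3.06 FPKM in *Nrl-/-* and 4.75 FPKM in WT retina (log2 fold change -0.50). Reads of *Nme1* and its near copy *Nme2* may be split between them. With each of the 4 scalings 6 of the 19 were called higher and 2 lower, and without *Nrl-/-* replicate 1 or 3 likewise 6, with 1 lower.

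Around IDH3, 10 of 19 measured genes of the TCA cycle and pyruvate dehydrogenase were called higher and 0 lower, with a median of 0.17. Besides *Idh3a* and *Idh3g*, these included *Pdha1*, the alpha subunit of pyruvate dehydrogenase, at 43.4 FPKM in *Nrl-/-* and 27.6 FPKM in WT retina (0.64), and *Suclg1*, of succinyl-CoA ligase, at 29.7 FPKM in *Nrl-/-* and 20.6 FPKM in WT retina (0.51). With each of the 4 scalings 5 of the 19 were called higher, and without *Nrl-/-* replicate 1 or 3 likewise 5, with 0 lower each time. *Suclg2* was not listed.

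Around TOPORS, 4 of 17 measured genes of the SUMO pathway were called higher and 1 lower, with a median of 0.03 that was below 0 with each of the 4 scalings and without WT replicate 1. *Senp3*, a SUMO protease, was at 25.5 FPKM in *Nrl-/-* and 16.1 FPKM in WT retina (0.63), and *Senp7*, another, rose by 0.45. *Uba2* and *Sae1*, which together form the SUMO activating enzyme, rose by 0.38 and 0.36. The 1 called lower was *Senp2*, also a SUMO protease, at 10.1 FPKM in *Nrl-/-* and 11.5 FPKM in WT retina (log2 fold change -0.17), and with the scalings 3 to 4 of the 17 were called lower. Without WT replicate 2, and without each of the *Nrl-/-* replicates in turn, 0 of the 17 were called lower, and without WT replicate 1 the count was 2. *Sumo2* was not listed. Around RP9, *Pim2* was called higher, at 6.93 FPKM in *Nrl-/-* and 4.99 FPKM in WT retina (log2 fold change 0.41, limma adjusted p = 0.0096). *Pim1*, the kinase that RP9 binds, was at 1.18 FPKM in *Nrl-/-* and 1.300 FPKM in WT retina and was not called, nor was *Pim3*.

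The retinitis pigmentosa genes that act in the photoreceptor itself were mostly lower in *Nrl-/-* retina. Of 19 measured, 14 were called lower and 1 higher in *Nrl-/-* retina, with a median log2 fold change of -1.98, against 0.05 over the 10 genes of splicing and metabolism, a median that was below 0 with each of the 4 scalings. *Cnga1*, the alpha subunit of the rod channel, was at 0.0187 FPKM in *Nrl-/-* and 233 FPKM in WT retina, a log2 fold change of -7.84 in FPKM + 1. *Nr2e3*, a transcription factor of rods, had -7.83, *Reep6* -5.20 and *Pde6b*, a subunit of the rod phosphodiesterase, -4.48. The 1 called higher was *Impg2*, of the matrix around photoreceptors, at 93.4 FPKM in *Nrl-/-* and 64.8 FPKM in WT retina. Of the 5 rod markers, whose summed levels are given above, 3 are in this list. No test compared the lists. *Prcd* was not listed.

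**Figure D5:**
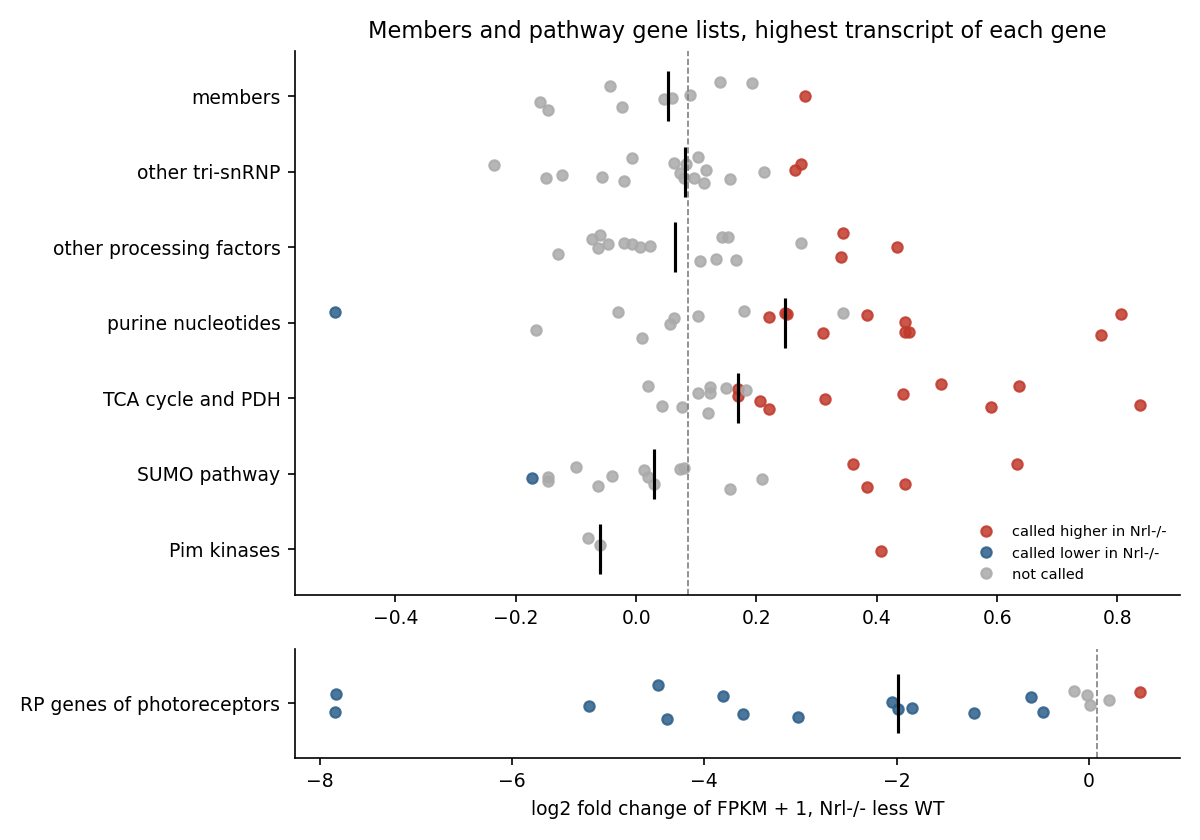
Log2 fold change of FPKM + 1, *Nrl-/-* less WT, of each gene of the 8 groups by its highest transcript, with the median of each group as a bar and that of all gene symbols dashed; the photoreceptor genes have an axis of their own. The 10 genes span -0.16 to 0.28, and the photoreceptor genes -7.84 to 0.53.

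Over the 6 libraries, the transcripts whose log2(FPKM + 1) followed that of *Idh3b* most closely were *Fkbp4*, a chaperone partner, *Zmym6*, a zinc finger gene, and *Ywhae*, a 14-3-3 protein, each with a Pearson r of 0.999. The 6 points form a cluster for each genotype, so r mostly reflects the difference between genotypes, and 1592 of 15141 other transcripts had an r above 0.95. *Fkbp4* was at 80.6 FPKM in *Nrl-/-* and 55.7 FPKM in WT retina, *Zmym6* at 20.7 FPKM in *Nrl-/-* and 14.8 FPKM in WT retina, and *Ywhae* at 181 FPKM in *Nrl-/-* and 151 FPKM in WT retina.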

How the data were processed

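Libraries from whole retina were analysed as the study's tables give them. Per the study's methods, reads were aligned by the authors with BWA to mm9, and FPKM per refFlat transcript was estimated in Partek software. The deposited BWA values, though headed FPKM, are log2(FPKM + 1), rounded to 2 decimals, and leave out transcripts under 1 FPKM in every library. The authors' TopHat and Cufflinks values are deposited as FPKM, 1 pooled value per genotype. Versions of these tools are not given in the sources used here. Lists of changed transcripts and the fold changes and p-values of the authors' own comparisons were not used. Without counts in the tables the depth and counting error behind a value are unknown, and the rounding prevents their recovery.

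FPKM was taken as 2 to the power of the value less 1. A linear model of genotype was fitted to the deposited log2 values with limma 3.58.1 in R 4.3.3, with a trend in the prior variance, two-sided, and Benjamini-Hochberg adjustment over 15142 mRNA transcripts. A fold change on this scale understates that of low transcripts. Ratios of FPKM were compared by exact permutation tests. Other steps used Python 3.11.15 with pandas 2.3.3, scipy 1.17.1 and matplotlib 3.10.9. Loci were taken from GENCODE on NCBIM37. They are spans of whole genes and need not be those of the RefSeq transcript named beside them. Named are the 10 genes, up to 4 called genes of each list with the largest change, the 3 transcripts most like *Idh3b*, and the other subunits and paralogs of members. *Senp2*, *Impg2* and the TopHat transcripts beyond 2-fold were chosen after their values were seen. The genes and the 7 pathway lists were chosen with earlier results of these data known. Correlations of residuals between same-numbered libraries of the genotypes were 0.0286, 0.0237 and 0.124. Those between libraries of unlike number ran from -0.0895 to 0.0729. Each library came from a different mouse, and the numbers were not treated as pairs. Alternatives were 2 pseudocounts, 2 filters, 3 other models, 4 scalings, a replicate block, sums per gene and leaving out each library.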

Additional observations from a re-analysis of the deposited data

How the results depend on the processing

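Of the 11 transcripts, the count called higher in *Nrl-/-* retina was 0 with quantile normalization and the count called lower was 2 with each of the 4 scalings (*Prpf8* and *Impdh1*). The total called was 3 with median-of-ratios scaling, upper-quartile scaling and scaling without the 25 highest transcripts, and 2 with quantile normalization. Leaving out 1 library at a time gave 1 to 2 higher, 0 to 1 lower and 1 to 3 in all. The upper values came without WT replicate 3, where *Prpf6* and *Impdh1* joined *Idh3b*. Pseudocounts, filters, other models, sums per gene and the replicate block gave 1 higher and 0 lower. Under the replicate block *Idh3b* had an adjusted p of 0.0064 from limma.

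The 4 scalings, in the order median-of-ratios, upper-quartile, quantile and without the 25 highest, moved the median of all mRNA transcripts from 0.08 to near 0. The share of calls that were higher was 72.7% as deposited and 52.0%, 52.1%, 52.3% and 53.7% under them. In the same order, these log2 fold changes turned negative. *Prpf31* NM_027328 had -0.0309, -0.0308, -0.0117 and -0.0254, and *Prpf31* NM_001159714 had -0.0293, -0.0292, -0.00639 and -0.0237. The values of *rp9* were -0.0445, -0.0444, -0.0214 and -0.0388, and those of *Topors* -0.00811, -0.00802, -0.00222 and -0.00202. Leaving out 1 library at a time, *rp9* ranged from -0.00333 (without WT replicate 2) to 0.0867, and *Prpf4* from -0.06 to 0.02 (without WT replicate 3). The causes of these changes were not tested. With a filter at 5 FPKM, NM_027328 of *Prpf31* was left out and 10 transcripts remained in the fit. *Idh3b* ranged from 0.13 to 0.31 over 19 alternatives, with limma adjusted p from 0.0018 to 0.082. With 3 libraries a genotype and no read counts, differences within the intervals given were not detectable.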
